A study of Mus musculus with 5 samples.

Results

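The genes whose enzymes turn arachidonic acid into leukotrienes and prostaglandins were followed in allergen-exposed mouse lung. They are 10 genes chosen by name: Alox5, Alox5ap, Ltc4s and Lta4h of the leukotriene branch, and Ptgs1, Ptgs2, Ptges, Ptgds, Hpgds and Ptgis of the prostaglandin branch. A gene was represented by the probes whose platform annotation names that gene alone; probes measured on 4 or 5 arrays were kept and averaged within each array. On these terms 7 of the 10 genes were measured, by 8 of the 17280 probes, among 9715 genes in all. Alox5 and Ptgs1 have no probe naming them in this annotation, and the single Hpgds probe has values on 3 arrays, so these 3 genes were not tested.

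The tested samples were lungs of 5 C3H mice (Ova C3H 1 to Ova C3H 5; C3H is an inbred strain), each sensitised to ovalbumin (a protein of egg white, here the allergen) and later challenged with it. The RNA of each was amplified and hybridised on its own 2-colour array against a control C3H pool, a mixture of amplified lung RNA from control mice of the same strain. The sources used here give no age, sex, substrain, treatment days, dyes or number of control mice, and the single pool gives no measure of the spread among control mice. Whole lung was used, so that fewer cells of a type and less RNA per cell cannot be told apart, and the table holds ratios without levels, so that no marker can be read as present or absent.

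Arachidonic acid, released from membranes by phospholipases A2, is the common source of both branches. In the leukotriene branch 5-lipoxygenase (Alox5), helped by its activating protein FLAP (Alox5ap), makes leukotriene A4, which Lta4h turns into the neutrophil attractant leukotriene B4 and Ltc4s joins to glutathione, giving the cysteinyl leukotrienes known for constricting airways in asthma. In the prostaglandin branch the cyclooxygenases Ptgs1 and Ptgs2 make prostaglandin H2, from which terminal synthases make prostaglandin E2 (Ptges), prostaglandin D2 (Ptgds and Hpgds) and prostacyclin (Ptgis).

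Values are deposited log ratios, read as log2 and set so that every array has a median of 0. The log base and the channel on top of the ratio are not stated, so each gene is given as lying on the negative or the positive side. For orientation, the fit called 6 negative and 0 positive among 7 measured genes that allergic mouse airways are known to induce, namely Retnla (mean -4.79), Clca1 (-4.33), Rnase2a (-4.23), Arg1 (-3.48), Muc5ac (-3.00) and Ccl11 (-0.94). Il13ra2 had 0.010 (n = 4). Each array carried between 11778 and 13320 probe values, mouse 1 had the smallest SD across probes (0.20, with 0.32 to 0.38 for mice 2 to 5), and Pearson's r between arrays across probes was between 0.643 and 0.83 (10 pairs, which share the control pool). Each gene was tested against 0 with limma's moderated test, two-sided and adjusted by the Benjamini-Hochberg method over all 9715 genes, with a threshold of 0.05. Of all genes 27.5% passed, made up of 15.2% negative and 12.3% positive.

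Ltc4s and Ptges, the terminal enzymes for leukotriene C4 and prostaglandin E2, lay on the negative side, the side of Retnla and Clca1. The remaining measured members, Alox5ap, Lta4h, Ptgs2, Ptgds and Ptgis, had mean ratios between -0.027 and 0.076 and did not pass. Thus 2 of 7 members passed, or 28.6%, close to the 27.5% of all genes, and the number of calls does not set the group apart. Both also lay on 1 side of 0 in every mouse, as 26.1% of all genes did while passing. Against a minimum size of 0.5 (limma treat) 0 of 7 members passed, beside 0.772% of all genes. The median member ratio was 0.018, against 0.00025 over all genes tested. Members and gene lists were chosen with earlier results of these data known.

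**Figure D1:**
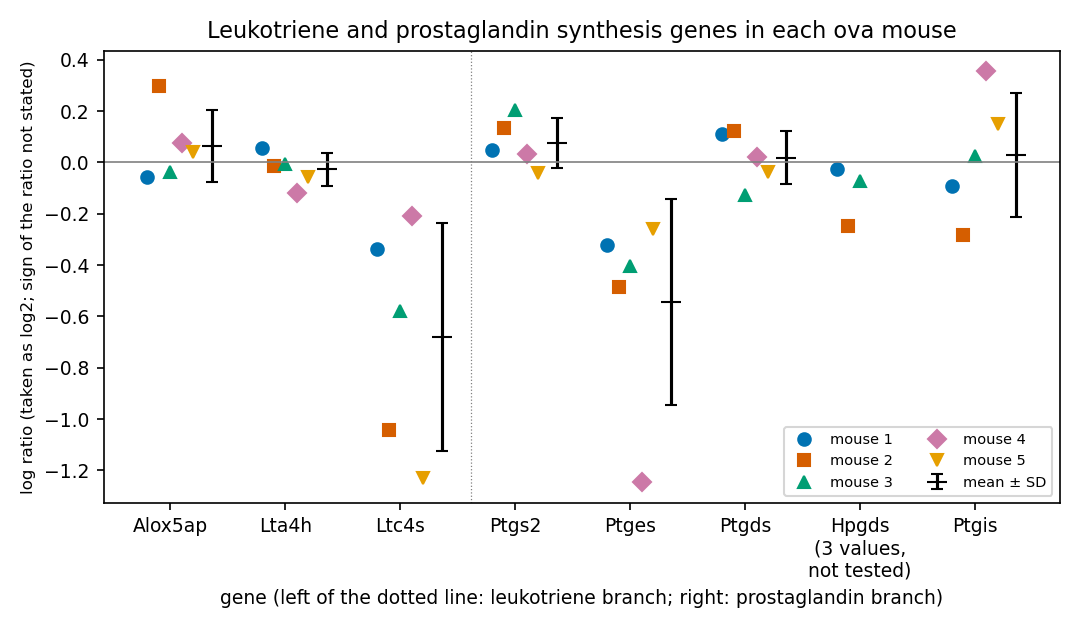
Log ratio of each measured synthesis gene (vertical axis, taken as log2) in each of the 5 ova mice, with mean ± SD at the right of each gene (n = 5; Hpgds has 3 values and no mean drawn). Ltc4s and Ptges lie below 0 in all 5 mice, with the lowest Ltc4s values in mice 5 and 2 and the lowest Ptges value, -1.25, in mouse 4.

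**Figure D2:**
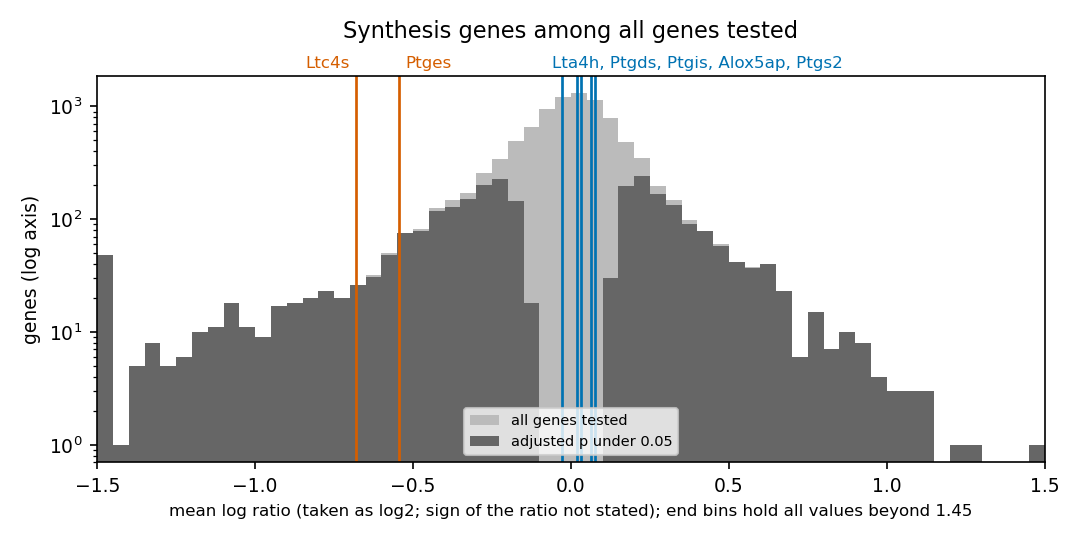
Distribution of mean log ratios over the 9715 genes tested (grey) and over those with a limma adjusted p under 0.05 (dark grey), with a log count axis and vertical lines at the 7 measured synthesis genes. Ltc4s at -0.68 and Ptges at -0.54 stand in the negative tail, and the other 5 lie between -0.027 and 0.076.

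Ltc4s encodes leukotriene C4 synthase, the glutathione-joining enzyme of mast cells, basophils, eosinophils and macrophages. Its ratio was -0.34 in mouse 1, -1.04 in mouse 2, -0.58 in mouse 3, -0.21 in mouse 4 and -1.23 in mouse 5. All 5 mice lay below 0, mice 2 and 5 well apart from the others. The mean was -0.68 ± 0.44 (SD, n = 5; 95% interval -1.02 to -0.34; 1.60-fold if the log base is 2), with a limma adjusted p of 0.0122, and it ranked 311 of 9715 genes by mean size. The SD of Ltc4s between mice was 0.44, against a median of 0.127 over genes. Across all genes tested, the arrays of mice 2 and 5 also had the widest ratios. Their SDs over genes were 0.38 and 0.40, against 0.22, 0.34 and 0.36 in mice 1, 3 and 4. With arrays scaled to the same SD, Ltc4s had a mean of -0.66 and an SD of 0.34. The part of this array-wide spread in the Ltc4s ratios was not tested. Leaving out any 1 mouse kept the Ltc4s call, with means between -0.80 and -0.54 and limma adjusted p-values between 0.0113 and 0.0429.

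Alox5ap, the membrane protein that presents arachidonic acid to 5-lipoxygenase, had ratios of -0.057, 0.30, -0.037, 0.076 and 0.040 in mice 1 to 5. Only mouse 2 lay beyond 0.1 in size. The mean was 0.064 ± 0.14 (SD, n = 5; 95% interval -0.075 to 0.20; limma adjusted p = 0.466).

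Lta4h, the hydrolase of the leukotriene B4 arm, had ratios of 0.056, -0.013, -0.0065, -0.12 and -0.055 in mice 1 to 5, a mean of -0.027 ± 0.065 (SD, n = 5; 95% interval -0.13 to 0.077; limma adjusted p = 0.69). It is the only measured member with more than 1 probe. The probe of accession NM_008517 averaged -0.073 and that of BC021309 0.018, on opposite sides of 0, and neither passed in a fit of all probes. In every mouse the Ltc4s ratio was thus further below 0 than the Alox5ap ratio and the averaged Lta4h ratio. The NM_008517 probe of Lta4h alone had -0.26 in mouse 4, where Ltc4s had -0.21. These differences between genes were not tested.

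Ptges encodes microsomal prostaglandin E synthase 1, the inducible terminal enzyme for prostaglandin E2. Its ratio was -0.32 in mouse 1, -0.49 in mouse 2, -0.40 in mouse 3, -1.25 in mouse 4 and -0.26 in mouse 5. Mouse 4 lay far below the other mice. The mean was -0.54 ± 0.40 (SD, n = 5; 95% interval -0.85 to -0.23; 1.46-fold if the log base is 2), with a limma adjusted p of 0.0207, and it ranked 518 of 9715 genes by mean size. Without mouse 4 the mean was -0.37 (limma adjusted p = 0.00851). The call was lost without mouse 2 (mean -0.56, limma adjusted p = 0.0533) and without mouse 3 (mean -0.58, limma adjusted p = 0.0555).

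Probes at ID distances of 6, 18 and 24 that did not name the same gene had correlated mean ratios across the array (Pearson's r = 0.155, 0.108 and 0.107 over 9138, 8979 and 9363 pairs; between -0.011 and 0.023 at the other distances up to 30). A probe 6 IDs from that of Ptges names the iron exporter gene Slc40a1, which was chosen here after its values were seen. Slc40a1 had -0.21, -0.25, -0.16, -1.82 and -0.35 in mice 1 to 5, with mouse 4 standing apart as for Ptges. Its part in the Ptges value of mouse 4 was not tested. Another probe 6 IDs from that of Ptges names Plxnb2, which lay below 0 in all 5 mice. Plxnb2 had a mean of -0.28 (limma adjusted p = 0.00435 in a fit of all probes). Acox2, 24 IDs away, was also lowest in mouse 4 (-0.55). The measured probes at these distances from Ptges had means between -0.56 (Slc40a1) and 0.085 (Cnot6). Their part in the Ptges ratios was not tested. Around the Ltc4s probe, the 5 measured probes at these distances had means between -0.20 (Mki67) and 0.38 (Vldlr). The Mki67 probe, 6 IDs away, had -0.092, -0.55, -0.033, 0.071 and -0.38 in mice 1 to 5, lowest in mice 2 and 5 and highest in mouse 4, as Ltc4s was. Its part in the Ltc4s ratios was not tested. These neighbours, and those given for other genes, were named after their values were seen.

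Ptgs2, the inducible cyclooxygenase, had ratios of 0.049, 0.14, 0.20, 0.032 and -0.042 in mice 1 to 5. Its mean of 0.076 ± 0.096 (SD, n = 5) had a 95% interval of -0.040 to 0.19 and a limma adjusted p of 0.298. It lay above 0 in 4 of 5 mice, by 0.20 at most. Ptges, which works downstream of Ptgs2, thus lay below it in all 5 mice, a difference that was not tested.

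Ptgds, the lipocalin-type prostaglandin D synthase, had ratios of 0.11, 0.12, -0.13, 0.022 and -0.036 (mean 0.018 ± 0.10, SD, n = 5; 95% interval -0.10 to 0.14; limma adjusted p = 0.822). Hpgds, the haematopoietic prostaglandin D synthase of mast cells and type 2 lymphocytes, had -0.025, -0.25 and -0.072 in mice 1, 2 and 3 and no value in mice 4 and 5. Admitted under a filter of 3 arrays, Hpgds had a mean of -0.11 ± 0.12 (SD, n = 3) and a limma adjusted p of 0.29.

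Ptgis, the prostacyclin synthase of vascular endothelium and smooth muscle, had ratios of -0.092, -0.28, 0.024, 0.355 and 0.15 in mice 1 to 5. Mice 2 and 4 lay on opposite sides, and the SD of 0.24 exceeded the mean of 0.030 (n = 5; 95% interval -0.17 to 0.23; limma adjusted p = 0.821). For the 5 genes that did not pass, the 95% intervals reached no further than 0.23 in size, so larger mean ratios against this pool lie outside them. All 5 arrays share 1 control pool, so these intervals leave out the spread among control mice. They do not bound a difference from control mice in general.

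The promoter windows of Ltc4s and Ptges are shown because these members lay past the threshold on the same side. They are the 250 bases before the annotated start in RefSeq (build GRCm38.p6), 5′ to 3′ on the strand of the gene. Capitals mark the GC box GGGCGG, searched on both strands together with the E-box CACGTG and the TATA letters TATAAA. The Ltc4s window is chr11:50238533-50238782 and the Ptges window chr2:30903298-30903547, both on the minus strand.
Ltc4s: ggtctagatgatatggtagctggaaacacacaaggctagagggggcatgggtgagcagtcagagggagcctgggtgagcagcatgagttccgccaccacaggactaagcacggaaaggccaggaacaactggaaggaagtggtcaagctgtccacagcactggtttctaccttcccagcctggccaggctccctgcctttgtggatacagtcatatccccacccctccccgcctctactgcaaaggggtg
Ptges: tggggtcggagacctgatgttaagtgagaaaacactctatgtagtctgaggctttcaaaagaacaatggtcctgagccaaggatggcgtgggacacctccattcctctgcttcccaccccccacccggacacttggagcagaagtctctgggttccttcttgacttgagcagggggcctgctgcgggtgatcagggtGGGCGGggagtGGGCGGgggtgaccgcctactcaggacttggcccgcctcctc
The Ptges window holds 2 GC boxes, which begin 53 and 42 bases before the start. None of the 3 motifs was found in the Ltc4s window. A GC box was present in 32.7% of all 32851 promoter windows of this length, an E-box in 6.02% and the TATA letters in 12.4%. Among the members that did not pass, the Ptgs2 window holds 1 GC box, 170 bases before the start, and the Lta4h and Ptgds windows hold none. For Alox5ap and Ptgis, which also did not pass, no promoter window was available.

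The other genes of the pathway were counted by role. Of 105 listed genes 56 were tested, with 9 negative and 10 positive calls, or 33.9%, against 27.5% of all genes, with a median ratio of 0.021.

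**Figure D3:**
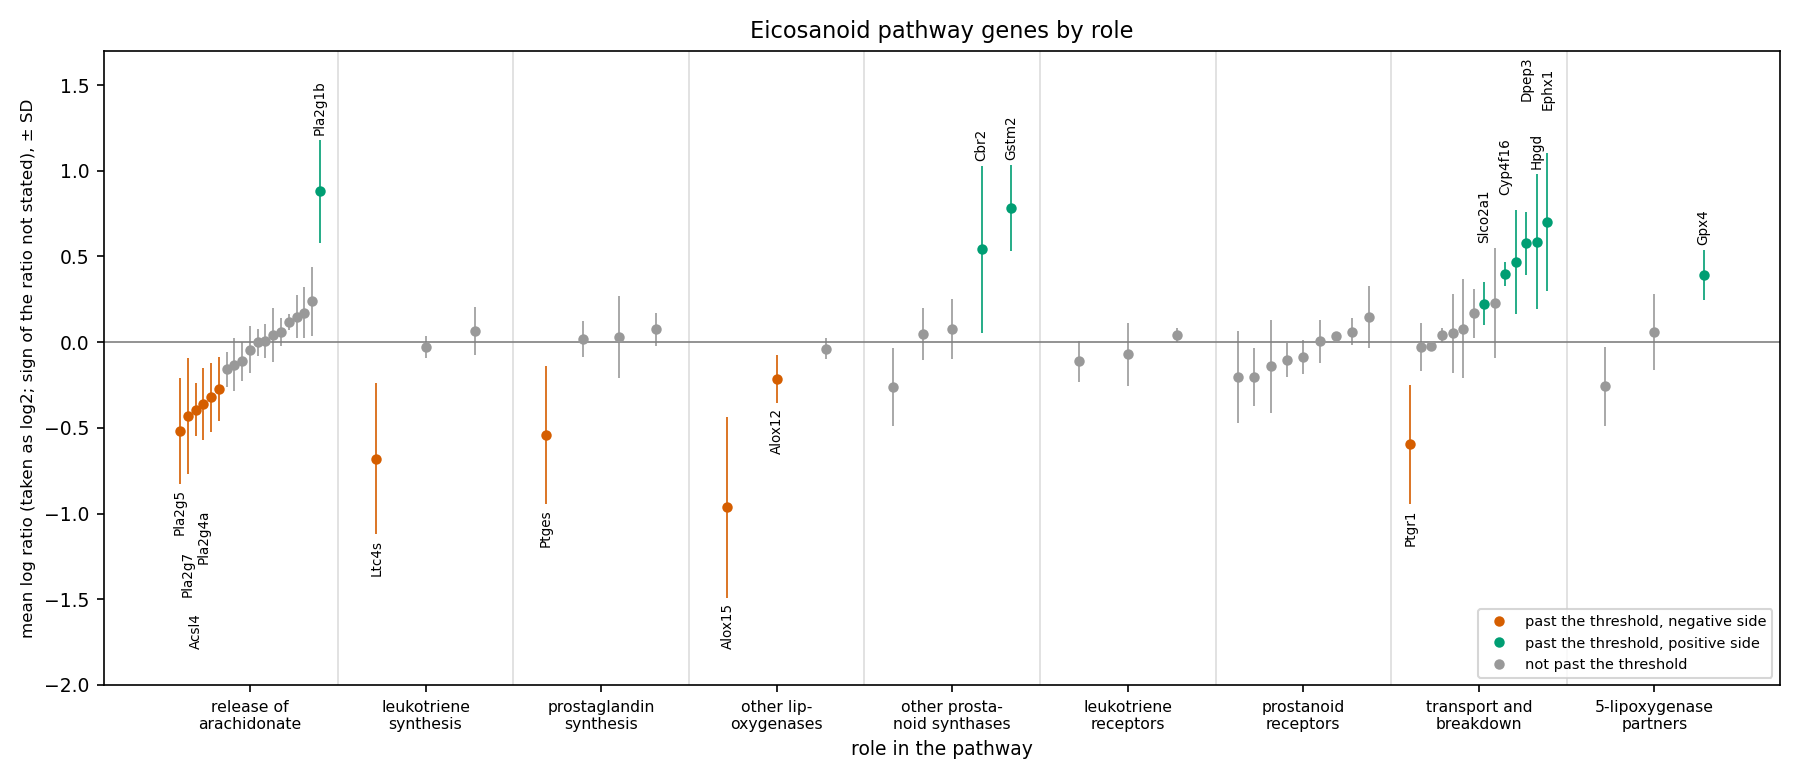
Mean log ratio ± SD (vertical axis, taken as log2; n = 4 or 5) of the measured eicosanoid genes by role, with genes past the limma threshold in orange (negative side) and green (positive side) and the others in grey. The negative calls include Ltc4s, Ptges, Alox15 and several phospholipases, 6 of the 7 calls of the transport and breakdown group are positive, and no receptor passed. The role labels stand for whole gene lists, and the label for release of arachidonate covers Pla2g7 too.

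Among 19 measured genes listed for phospholipases A2 and the handling of fatty acyl chains, 6 calls were negative and 1 was positive. The list median was -0.044. The list is wider than the release of arachidonic acid, and Pla2g7 is 1 of the 6 negative calls. Pla2g4a, the cytosolic phospholipase A2 that supplies both branches, had ratios of -0.075, -0.57, -0.27, -0.32 and -0.56 in mice 1 to 5. All 5 were below 0, with a mean of -0.36 ± 0.21 (SD, n = 5; limma adjusted p = 0.0123). Pla2g5, a secreted phospholipase A2, averaged -0.52 ± 0.31, and Acsl4, the ligase that loads arachidonic acid onto coenzyme A, -0.40 ± 0.16. On the other side Pla2g1b, the secreted phospholipase first known from pancreas, had 0.88 ± 0.30, with ratios between 0.38 and 1.18 (limma adjusted p = 0.00143). The measured neighbour probe (6, 18 or 24 IDs away) of largest mean size was Bcap29 (-0.66) for Pla2g4a and Sgo1 (-0.55) for Pla2g5. For Acsl4 it was Nif3l1 (-0.041) and for Pla2g1b Gsr (-0.57). The part of these neighbours in the ratios was not tested. Pla2g7, which degrades platelet-activating factor and was singled out after its values were seen, averaged -0.43 ± 0.34 and lost its call without mouse 3 or 5 (limma adjusted p = 0.087 and 0.0779).

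Of the other lipoxygenases 2 of 3 measured genes passed, both on the negative side. Alox15, the 12/15-lipoxygenase of mouse eosinophils and macrophages, had -0.58, -1.58, -0.42, -0.76 and -1.47 in mice 1 to 5. Its mean was -0.96 ± 0.53 (SD, n = 5; limma adjusted p = 0.00618), and its lowest values fell in mice 2 and 5, as for Ltc4s. The Alox15 probe lies 6 IDs from that of Vcan, a matrix proteoglycan gene, which had -0.46, -1.77, -0.26, -0.88 and -1.23 in mice 1 to 5, also lowest in mice 2 and 5; its part in the Alox15 ratios was not tested. Alox12, the platelet 12-lipoxygenase, averaged -0.21 ± 0.14 (limma adjusted p = 0.0323). Its call was lost without mouse 2, 3, 4 or 5 (limma adjusted p between 0.0519 and 0.11), and its probe lies 6 IDs from that of Gmnn (-1.05).

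Of 5 further measured genes listed with the prostanoid synthases, 2 passed, Cbr2 and Gstm2, both on the positive side. Whether either makes prostanoids in mouse lung was not tested. Cbr2, a carbonyl reductase of mouse lung, averaged 0.54 ± 0.49, with its only value below 0 in mouse 4 (-0.096) and the other mice between 0.28 and 1.08. Its call (limma adjusted p = 0.0398) was lost without mouse 2, 3 or 5 (limma adjusted p between 0.1 and 0.134). Gstm2, a glutathione transferase whose human counterpart can make prostaglandin E2, averaged 0.78 ± 0.25; whether related transferase RNAs bind its probe was not tested. The Gstm2 probe lies 6 IDs from that of another glutathione transferase gene, Gsta3 (0.76).

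No measured receptor passed. In the limma test 0 of 12 genes of the receptor lists had an adjusted p under 0.05, against 27.5% of all genes. An unadjusted p under 0.05 was found for 1 of the 12, against 40.2% of all genes at that level. Ptgdr2 (0.0096) and Cysltr2 (0.041) had the smallest SDs of the 12, against a median of 0.127 over genes. Spot brightness was not used, so faint spots cannot be told from unchanged genes. The leukotriene B4 receptor gene Ltb4r1 had a mean of -0.071 ± 0.18 (n = 5), and the cysteinyl leukotriene receptor genes Cysltr1 and Cysltr2 had -0.11 ± 0.12 and 0.040 ± 0.041 (n = 4 each). The prostaglandin E2 receptor genes Ptger1, Ptger2, Ptger3 and Ptger4 averaged 0.060, 0.0056, -0.20 and -0.084 (n = 5 each), and Ptger3 was lowest in mouse 4 (-0.67), the others lying between -0.19 and -0.042.

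The prostaglandin D2 receptor gene Ptgdr, with the single unadjusted p of 0.0286, stood at 0.049 in mouse 1, with mice 2, 4 and 5 between -0.31 and -0.27 (mean -0.20 ± 0.17, n = 4; limma adjusted p = 0.0835). Without mouse 1 it passed, at -0.29 (limma adjusted p = 0.0189). Ptgdr2, the second prostaglandin D2 receptor, known from type 2 lymphocytes and eosinophils, had 0.035 ± 0.010 (n = 4). The thromboxane receptor gene Tbxa2r (0.15 ± 0.18), Ptgfrn (-0.10 ± 0.10), which encodes a partner of the prostaglandin F2 alpha receptor, and the nuclear receptor gene Pparg (-0.14 ± 0.27) did not pass.

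Genes listed for eicosanoid transport and breakdown gave 6 positive calls and 1 negative call among 14 measured, with a list median of 0.20. The list includes relatives of known enzymes, and the action of each gene on eicosanoids was not tested. Ephx1, the microsomal epoxide hydrolase, averaged 0.70 ± 0.40 (n = 4; limma adjusted p = 0.0124) and Dpep3, a membrane dipeptidase, 0.58 ± 0.18. Its relative Dpep1 had 0.23 ± 0.32 and did not pass (limma adjusted p = 0.16). Cyp4f16, of the cytochrome family that hydroxylates leukotrienes, had 0.40 ± 0.070, with all 5 mice between 0.32 and 0.49. The Ephx1 call was lost without mouse 3, at a limma adjusted p of 0.0596.

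Hpgd, the dehydrogenase that inactivates prostaglandin E2 and was singled out after its values were seen, had 0.31, 1.21, 0.69, 0.52 and 0.22 in mice 1 to 5. All 5 mice were on the positive side, against all 5 on the negative side for Ptges, and the mean was 0.59 ± 0.39 (SD, n = 5; limma adjusted p = 0.0144; 0.0578 without mouse 3). Slco2a1, the prostaglandin uptake carrier, also chosen after its values were seen, averaged 0.22 ± 0.12 (n = 4; limma adjusted p = 0.0387) and lost its call without mouse 1, 2, 3 or 5. On the negative side stood Ptgr1, which breaks down leukotriene B4 and 15-keto prostaglandins, with -0.49, -1.17, -0.40, -0.28 and -0.65 in mice 1 to 5 (mean -0.60 ± 0.35, SD, n = 5; limma adjusted p = 0.00877). Gpx4, the lipid peroxide reductase that restrains 5-lipoxygenase, was the single call among 3 measured regulators, at 0.39 ± 0.15.

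The 3 genes whose 5 ratios lay nearest to those of Ltc4s, by mean absolute difference over 5 mice among 8017 other genes, were Kpna2 (0.10), S100a9 (0.12) and Sgo1 (0.13). Kpna2 is a nuclear import adaptor, S100a9 a calprotectin subunit of neutrophils and monocytes, and Sgo1 a protector of chromosome cohesion. S100a9 had -0.44, -1.18, -0.57, -0.39 and -1.07 in mice 1 to 5, low in mice 2 and 5 as Ltc4s was; its probe lies 24 IDs from that of Mmp12 (-2.30). Nearest to Ptges were Anapc5 (0.082), a subunit of the anaphase-promoting complex, Junb (0.15), an AP-1 transcription factor, and Iglv1 (0.16), an immunoglobulin light chain segment. Anapc5 was lowest in mouse 4 (-1.03), the others lying between -0.42 and -0.30.

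**Figure D4:**
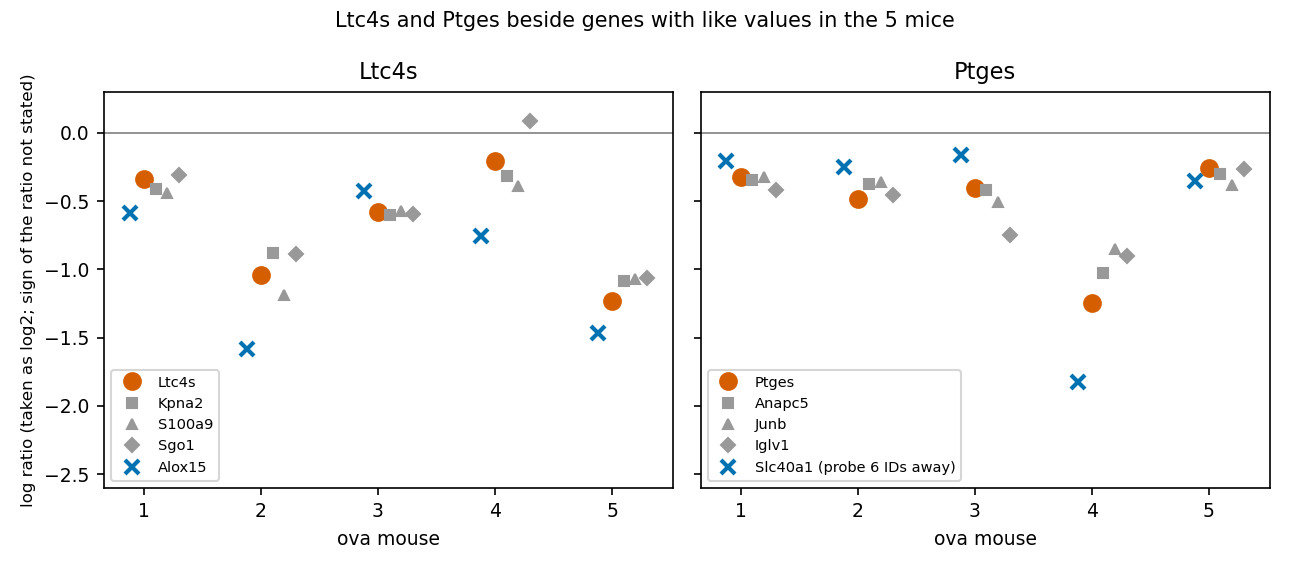
Log ratio (vertical axis, taken as log2) in each ova mouse (horizontal axis) of Ltc4s with its 3 nearest genes and Alox15 (left), and of Ptges with its 3 nearest genes and Slc40a1, whose probe lies 6 IDs away (right). The left genes are lowest in mice 2 and 5, and the right genes are lowest in mouse 4, where Slc40a1 had -1.82. The 3 nearest genes were picked by their values in these mice, and Slc40a1 was added after its values were seen. The low mice they share with Ltc4s or Ptges follow from that choice.

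Marker genes of lung and blood cell types were counted in the same fit, in which 27.5% of all genes passed. The part of these cell types in the member ratios was not tested. Of 5 measured eosinophil genes, which include Alox15 and Rnase2a, 3 calls were negative and 1 positive, with list medians of -0.035, -0.85, -0.42, -0.093 and -0.52 in mice 1 to 5. Neutrophil genes gave 7 negative calls of 8, with medians of -0.17, -0.71, -0.47, -0.39 and -0.61. In both lists the lowest medians fell in mice 2 and 5, where Ltc4s was lowest. Among the neutrophil genes, S100a8, S100a9 and Mmp8 had their lowest values in these mice. The others, Camp, Mmp9, Csf3r, Mpo and Elane, each had a lower value in mouse 3 or 4 than in mouse 2 or 5. These neutrophil genes were named after their values were seen. Among the eosinophil genes, Prg2, Ccr3 and Alox15 had their lowest values in mice 2 and 5. Siglecf was highest in mouse 2 (0.71), and Rnase2a was lower in mouse 4 (-4.53) than in mouse 5 (-4.48).

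Macrophage and monocyte genes gave 5 negative calls of 8, with medians of -0.19, -0.91, -0.95, -1.21 and -1.07 in mice 1 to 5. Mast cell and basophil genes gave 1 call on each side of 7, or 28.6%, with a median of -0.083. Their medians were 0.010, -0.11, -0.13, 0.006 and -0.385 in mice 1 to 5. The calls were Mcpt8, a basophil protease (-1.20), and Gata2 (0.62), which endothelium also expresses. The mast cell genes Cpa3 (-0.30), Mcpt2 (-0.19), Tpsab1 (-0.083), Tpsb2 (-0.0057) and Kit (0.039) did not pass; these 7 genes were named after their values were seen. On the positive side stood endothelium, with 9 of 10 genes and a median of 0.61, while Ptgis had 0.030. The endothelial medians were 0.24, 0.77, 0.54, 0.57 and 0.85 in mice 1 to 5, farthest from 0 in mice 2 and 5. Airway and alveolar epithelial genes gave 3 negative and 7 positive calls of 13, alveolar macrophage genes 1 positive call of 6, and smooth muscle, fibroblast and mesothelial genes 3 negative and 1 positive call of 10. Platelet genes gave 1 negative call of 2, T and innate lymphoid genes 2 negative calls of 7, and heart, fat and muscle genes 3 positive calls of 7.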

How the data were processed

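The authors' deposited table holds 1 value per probe and array for 5 arrays, read as a log2 ratio; scanner, background correction and normalization are each not given in the sources used here. The largest size, 5.168, exceeds the log10 range of raw 16-bit scanner intensities (4.82). Background correction or normalization could widen that range, so no base is excluded by it, and base 2 was assumed. Spot brightness was not used here, and the number of arrays limits precision. Platform annotation gave 1 gene symbol for 14722 of 17280 probes, several for 1 and none for 2557. Arrays were median-centred, probes with values on at least 4 arrays were averaged per gene, and 9715 genes were tested with limma 3.58.1 (statmod 1.5.0) in R 4.3.3 (lmFit with an intercept, eBayes). The script was tested on simulated data. The pool counts as 1 control sample. The smallest two-sided p of an exact sign test over 5 arrays is 0.0625, so calls of single genes rest on the model. Intervals are the fit's 95% intervals. Named were all members, up to 4 called genes of smallest p per pathway list, all measured receptors, the orientation genes and the 3 genes nearest to each of the 2 largest called members; others, neighbours in probe ID included, are marked as chosen after their values were seen. Members and lists were chosen with earlier results of these data known. Alternatives were other centring, scaling, filters, probe averaging, weights, variance models, a minimum size of 0.5 and leaving out each mouse.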

Additional observations from a re-analysis of the deposited data

Results flagged for a closer look

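In 5 named genes 1 mouse stood apart from the others by Dixon's criterion, a gap that chance gives in about 1 of 20 groups. Some of the 49 genes examined were chosen by their values in these mice, so the number found is not comparable with that rate. Mouse 4 had a Ptges ratio of -1.25, against -0.49 to -0.26 in the other 4 mice. Of the receptor genes, Ptger3 was -0.67 in mouse 4, against -0.19 to -0.042, and Ptgdr 0.049 in mouse 1, against -0.31 to -0.27 in 3 mice. Anapc5, named because its ratios lay nearest to those of Ptges, had -1.03 in mouse 4, against -0.42 to -0.30. Slc40a1, examined after its values were seen because its probe lies 6 IDs from that of Ptges, had -1.82 in mouse 4, against -0.35 to -0.16.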

How the results depend on the processing

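Ltc4s kept its side and its call under all 15 alternatives that test against 0, with means between -0.80 and -0.54 over the mice left out. Neither Ltc4s nor Ptges passed against a minimum size of 0.5. Ptges kept its side under all 15, with means between -0.61 and -0.37 over the mice left out, and lost its call in 2 of them. Both genes have 1 probe with 5 values, so settings that change the array filter or probe averaging left their ratios unchanged. In those settings only their p-values could move. Members that did not pass stayed so under every alternative run. Their sign changed in Lta4h with its BC021309 probe taken singly (0.018), and over the mice left out the mean ranged between -0.0078 and 0.055 in Ptgds and between -0.051 and 0.11 in Ptgis. Of the genes outside the members, the receptor gene Ptger2 ranged between -0.030 and 0.047 over the mice left out. Il13ra2 gave -0.012 with quantile normalization, -0.0090 with arrays scaled to the same SD, and between -0.038 and 0.054 over the mice left out.

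Members past the threshold numbered between 1 and 2 over the mice left out, all on the negative side, where the number was likewise between 1 and 2. Against a minimum size of 0.5 (limma treat) 0 of 7 members passed, against 2 in the limma test of 0, where 2 also had an unadjusted p under 0.05. Of all genes 75 then passed (68 negative, 7 positive). Over the mice left out, the number of genes past the threshold was between 1601 and 2573, made up of 929 to 1440 negative and 672 to 1133 positive calls. Leaving out mouse 3 gave 1688, leaving out mouse 5 gave 1601, and leaving out mouse 2 gave 794 positive calls. Pathway genes past the threshold numbered between 10 and 22, made up of 5 to 13 negative and 5 to 12 positive calls; the lowest number, 10, was that without mouse 3. Fewer arrays enter these fits, and values were then needed on 3 arrays. No paired analysis was possible because the series holds 1 group. Spot brightness was not used here, so faint spots could be told only where values are blank.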

Other observations

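The Lta4h probe of accession BC021309 had ratios of 0.022, -0.001, 0.026, 0.025 and 0.017 in mice 1 to 5. Its SD of 0.011 was smaller than that of all but 2 of the 9464 probes with 5 values, whose median SD was 0.132. The Lta4h probe of accession NM_008517 had 0.090, -0.024, -0.039, -0.26 and -0.13, with an SD of 0.13 near that median.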
